A study of Homo sapiens with 10 samples.

Results

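The 61 genes described here encode histone lysine methyltransferases and demethylases of the human genome, together with proteins that share their domains. Other such enzymes, among them SETDB1 and ASH1L, fall outside the symbol rule used here. The 61 genes were chosen by a rule on the symbol, and earlier results of these data were known at the time. Gene identifiers of the count tables had first been matched to GENCODE symbols without their version number. Every protein-coding gene outside the Y chromosome whose symbol begins with KDM, KMT2, KMT5, SETD, NSD or PRDM and a number, or that is EHMT1, EHMT2, EZH1, EZH2, SUV39H1, SUV39H2 or DOT1L, was taken, which gave 61 of the 63299 genes counted. Of these members, 52 passed the filter on low counts and were tested, and 9 did not pass it. The cells were U2OS, an established human osteosarcoma line, transfected for 48 h with a pool of siRNAs. In the siDDX41 group the pool was directed against DDX41, a DEAD-box RNA helicase, and the siCtrl group received a control knockdown. PolyA RNA was read as single reads from a stranded library kit, in 5 libraries per group and 10 in all. Nothing in the sample descriptions says that the 5 libraries of a group came from separate cultures, so the p-values measure the spread between these samples, which may be technical.

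Lysines in the histone tails can carry methyl groups that are added by SET domain enzymes, or by DOT1L in the globular domain of H3, and removed by flavin-dependent amine oxidases or by JmjC dioxygenases. The position of the lysine sets what the mark is known for: methylated H3K4 lies at promoters and enhancers, H3K36 and H3K79 over transcribed genes, and H3K9, H3K27 and H4K20 largely over silent chromatin. Most of these enzymes occur as paralogs that act on the same lysine, and they work in complexes that decide where the mark is placed.

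The siCtrl libraries 1 to 5 held 24598860, 24353720, 23597352, 23393764 and 23863834 counts, and the siDDX41 libraries 1 to 5 held 21807041, 22995923, 24896398, 23714261 and 23723969. Levels are given as counts per 1000000 of a library's scaled total (CPM), and levels of different genes were compared after division by the length of the canonical transcript in kilobases. A gene's part of a summed count is not such a comparison. Mitochondrial genes took 1.500, 1.13, 1.49, 1.69 and 1.43% of the counts in siCtrl 1 to 5 and 2.29, 2.07, 2.07, 2.00 and 2.00% in siDDX41 1 to 5. The mitochondrial share was thus higher in every knockdown library than in any control library, and its part in the results that follow was not tested.

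DDX41 (ENSG00000183258.11) was counted at 49.1, 49.4, 47.3, 47.2 and 50.5 CPM in siCtrl 1 to 5 and 11.5, 13.7, 12.4, 11.2 and 12.3 CPM in siDDX41 1 to 5. The highest knockdown library lay far below the lowest control library, and no library went against its label. The mean fell from 48.7 ± 1.43 to 12.2 ± 1.00 CPM (SD, n = 5 in each group), which left 25.1% of the control level (log2 fold change −1.99, SE 0.0491, adjusted p = 4.47e-24). Here and below, p-values come from the quasi-likelihood test of edgeR and were adjusted by the Benjamini-Hochberg method over all 16143 genes tested, and a gene was called at an adjusted p under 0.01.

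The mesenchymal and bone lineage markers summed to 5489 to 5576 CPM in siCtrl and 5620 to 5913 CPM in siDDX41, while 2 of the 6, TWIST1 and COL1A2, did not pass the filter. Of the other 4, only SPARC, which gave the largest part of the summed counts, rose (log2 fold change 0.18), and VIM, RUNX2 and CDH2 fell (−0.09, −0.40 and −0.12). Epithelial markers summed to 29.6 to 33.2 CPM in siCtrl and 10.4 to 13.6 CPM in siDDX41, where KRT14 and KRT5 fell (log2 fold changes −3.27 and −3.41) and EPCAM and CDH1 were not called. Leukocyte markers summed to 0.286 to 0.631 CPM in siCtrl and 0.521 to 0.767 CPM in siDDX41, with PTPRC giving most of the counts (mean 0.436 CPM over 10 libraries), with CD3E at 0 in every library. Abundant VIM and SPARC fit a mesenchymal line, and the leukocyte markers were at or near 0.

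Of the 52 members tested, 16 were higher and 15 lower in siDDX41, and 21 were not called. These are 30.8% and 28.8% of the members tested, beside 30.3% called higher and 32.1% called lower among all genes tested, and beside 33.1% and 34.8% among protein-coding genes. The groups did not overlap for 30 members, all of them called, beside 55.9% of all genes tested. Called members were therefore about as frequent as called genes in general, and the direction and size for each enzyme carry what the data show. The median log2 fold change was 0.06 over the members tested and −0.0014 over all genes tested. In absolute size the median was 0.193 over the members and 0.283 over all genes. Among the 31 called members the absolute log2 fold change ran from 0.10 to 1.03 with a median of 0.32, where the median over all called genes was 0.41. Only 5 called members reached an absolute log2 fold change of 0.5, namely PRDM16, KDM7A and KMT2D upward and KDM5C and KDM8 downward. Methyltransferases split into 6 higher, 6 lower and 7 not called of 19 tested, and demethylases into 5, 6 and 6 of 17.

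**Figure D1:**
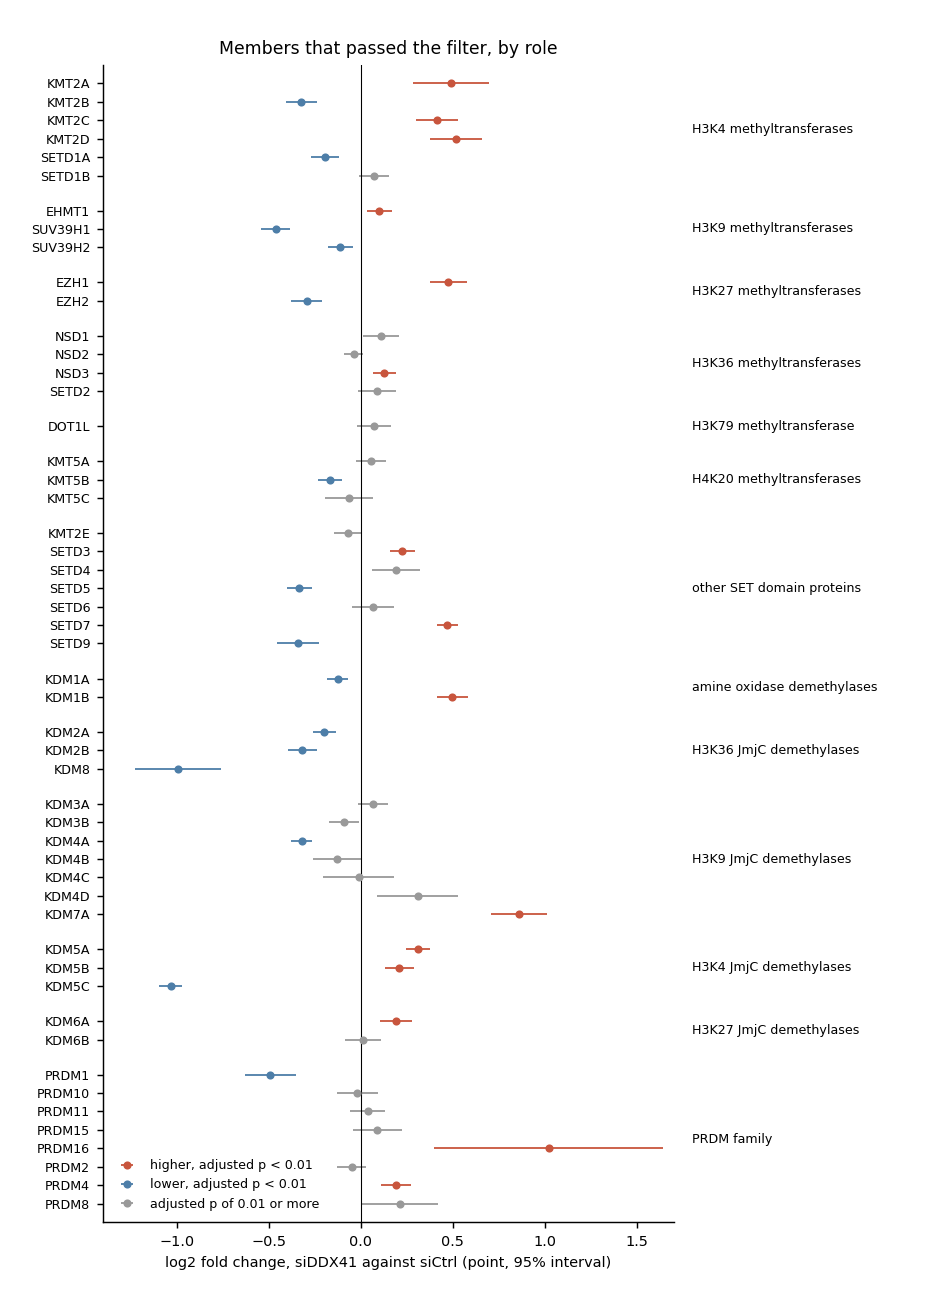
Log2 fold change (siDDX41 against siCtrl) of members that passed the filter, grouped by role; points are estimates, lines 95% intervals, n = 5 libraries per group. Red members were higher and blue members lower at an adjusted p under 0.01, and KDM5C (−1.03) and PRDM16 (1.02) mark the ends of the range.

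Among the H3K4 methyltransferases, KMT2A, KMT2C and KMT2D were higher and KMT2B and SETD1A lower after DDX41 knockdown, while SETD1B was not called. KMT2A (ENSG00000118058.20), the MLL1 protein that methylates promoters of developmental genes together with menin, was counted at 63.9, 67.1, 79.4, 80.6 and 67.2 CPM in siCtrl 1 to 5 and 107, 102, 106, 83.5 and 104 CPM in siDDX41 1 to 5. Every knockdown library lay above every control library, but siDDX41 4 was nearest to siCtrl 3 and 4, which were the highest controls. The mean rose from 71.6 ± 7.77 to 101 ± 9.73 CPM (SD, n = 5; log2 fold change 0.49, SE 0.0913, adjusted p = 0.000958). KMT2B (ENSG00000272333.5), the closest paralog of KMT2A, gave 68.6, 75.0, 78.2, 70.3 and 75.6 CPM in siCtrl 1 to 5 and 54.2, 61.1, 62.7, 57.5 and 58.3 CPM in siDDX41 1 to 5. For this gene the order was inverted, with all knockdown libraries under the lowest control, siCtrl 1. The mean fell from 73.5 ± 3.97 to 58.8 ± 3.30 CPM (SD, n = 5; log2 fold change −0.32, SE 0.0405, adjusted p = 4.97e-08).

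KMT2D (ENSG00000167548.14), which places H3K4 monomethylation at enhancers, was counted at 62.6, 70.9, 76.8, 74.0 and 67.2 CPM in siCtrl 1 to 5 and 97.3, 105, 107, 87.8 and 106 CPM in siDDX41 1 to 5. The groups were separate, again with siDDX41 4 the lowest of its group. KMT2D rose from 70.3 ± 5.57 to 101 ± 8.06 CPM (SD, n = 5; log2 fold change 0.52, SE 0.0636, adjusted p = 8.97e-06). Its paralog KMT2C rose from 20.1 ± 2.21 to 26.7 ± 0.623 CPM (log2 fold change 0.41), with control libraries between 18.2 and 22.7 CPM and knockdown libraries between 25.8 and 27.5 CPM. SETD1A, which with SETD1B is responsible for much of the H3K4 trimethylation in cells, fell from 59.9 ± 2.95 to 52.3 ± 1.46 CPM (log2 fold change −0.19), a change that measured −0.13 once a trend on GC content was removed from each library. SETD1B stood at 40.9 ± 2.00 and 43.0 ± 1.78 CPM, with overlapping groups (log2 fold change 0.07, 95% interval −0.01 to 0.16), and was called only with the GC trend removed (0.15, adjusted p = 0.000696).

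KMT2A, KMT2C and KMT2D have canonical transcripts of 16600, 16860 and 20635 bases, and transcripts of such length moved between libraries as a class. Over 516 other genes with transcripts longer than 10000 bases, the median deviation of log2 CPM from each gene's own mean was −0.07, −0.09, 0.04, −0.0017 and −0.07 in siCtrl 1 to 5 and 0.06, 0.07, 0.06, −0.0001 and 0.04 in siDDX41 1 to 5. Long transcripts were thus higher in siCtrl 3 and 4 than in the other controls and lower in siDDX41 4 than in the other knockdown libraries, the same libraries in which KMT2A and KMT2D lay closest to the opposite group. Of those 516 genes, 225 were called higher (43.6%) and 140 lower (27.1%). This class and the shorter ones below hold only genes with a mean of at least 5 CPM. The 30.3% and 32.1% among all genes tested are without that floor, so the shares are not a like comparison. Their log2 fold changes had a median of 0.09 and a 90th percentile of 0.63. Among 2560 genes with the shortest transcripts, 40.6% were called higher and 28.4% lower (median 0.08, 90th percentile 0.46). Among 8123 genes of intermediate length these shares were 34.8% and 37.4% (median −0.0059). A higher median after knockdown was therefore not particular to long transcripts. With a trend on exonic length removed from each library, KMT2A, KMT2C and KMT2D still passed the threshold, at log2 fold changes of 0.43, 0.33 and 0.47, and what sets apart the libraries was not tested.

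KMT2A and KMT2B were among 4 sets of paralogs whose members were called in opposite directions, and the promoters of these 9 genes are shown to let their sequences be compared. The sequences are from RefSeq on GRCh38.p14, run 5′ to 3′ on the strand of the gene and span 250 bases before to 30 bases after the annotated start. Capitals mark matches on either strand to any of 8 motifs, the NF-Y box (CCAAT), the TATA box (TATAAA), the GC box (GGGCGG), an ETS site (CCGGAAG), an E2F site (TTTGGCGC), the E box (CACGTG), the cyclic AMP element (TGACGTCA) and a YY1 site (AAGATGGCG), so that the reverse complement of a motif is also in capitals. Matches may overlap. The promoter of KMT2A (chr11:118436242-118436521, plus strand) and that of KMT2B (chr19:35717753-35718032, plus strand) both held GGGCGG, and KMT2B also held AAGATGGCG from base 14 of the transcript.
KMT2A: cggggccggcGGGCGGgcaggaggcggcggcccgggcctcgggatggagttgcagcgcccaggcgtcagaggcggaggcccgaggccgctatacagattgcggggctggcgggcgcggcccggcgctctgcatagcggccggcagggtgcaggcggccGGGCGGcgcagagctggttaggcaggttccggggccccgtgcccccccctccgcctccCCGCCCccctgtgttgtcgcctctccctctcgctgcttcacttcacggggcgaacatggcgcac
KMT2B: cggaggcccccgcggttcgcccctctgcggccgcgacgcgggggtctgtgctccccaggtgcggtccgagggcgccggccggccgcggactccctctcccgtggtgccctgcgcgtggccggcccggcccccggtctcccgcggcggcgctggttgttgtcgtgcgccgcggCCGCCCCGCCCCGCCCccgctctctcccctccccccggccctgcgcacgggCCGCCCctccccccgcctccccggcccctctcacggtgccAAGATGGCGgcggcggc

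The H3K9 methyltransferases of the symbol rule that could be measured divided into SUV39H1 and SUV39H2, which fell, and EHMT1, which was slightly higher. Outside the rule, SETDB1 (log2 fold change 0.003) and SETDB2 (−0.21, adjusted p = 0.0401) were not called. SUV39H1 (ENSG00000101945.16), an X-linked enzyme that trimethylates H3K9 in pericentromeric heterochromatin, was counted at 53.5, 55.6, 54.6, 54.6 and 57.5 CPM in siCtrl 1 to 5 and 37.0, 40.6, 41.5, 40.6 and 40.4 CPM in siDDX41 1 to 5. All knockdown libraries were below all control libraries, and siDDX41 1 was the lowest. SUV39H1 fell from 55.2 ± 1.49 to 40.0 ± 1.74 CPM (SD, n = 5; log2 fold change −0.46, SE 0.0375, adjusted p = 4.49e-12). SUV39H2, its paralog with the same activity, moved only from 65.4 ± 1.61 to 60.6 ± 2.17 CPM (log2 fold change −0.11, adjusted p = 0.0048), with groups that just failed to overlap. That call was lost without siCtrl 2, siCtrl 4, siDDX41 2, siDDX41 3 or siDDX41 5, where adjusted p-values ran up to 0.0242 and the log2 fold change over all 10 fits that left out a library lay between −0.13 and −0.09. It was also lost with the length trend removed (−0.08, adjusted p = 0.0256), without a filter on low counts (−0.11, adjusted p = 0.012) and in DESeq2's Wald test (−0.10, adjusted p = 0.018).

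EHMT1, which mono- and dimethylates H3K9 as a dimer with EHMT2, was at 56.4 ± 1.69 CPM in siCtrl and 60.5 ± 1.31 CPM in siDDX41 (log2 fold change 0.10, adjusted p = 0.00875). Its call did not hold without siCtrl 1, 2, 3 or 4 or siDDX41 1, 4 or 5, with adjusted p-values up to 0.033 and log2 fold changes between 0.08 and 0.11. Removing the length trend gave 0.06 (adjusted p = 0.151) and removing the GC trend 0.18, while scaling by library totals gave 0.09 (adjusted p = 0.0173) and testing without the filter 0.11 (adjusted p = 0.0138). EHMT2 was listed at 0 in all 10 libraries. Of the 98 protein-coding genes within 1000000 bases of EHMT2, 77 were likewise at 0 in every library (78.6%), against 2632 of 19486 protein-coding genes elsewhere (13.5%). The 0 for EHMT2 can therefore not be read as absence of expression, and the reason for the zeros was not tested.

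The catalytic subunits of Polycomb repressive complex 2 moved apart, with EZH1 higher and EZH2 lower. EZH1 (ENSG00000108799.12), the paralog that predominates in cells that divide little, was counted at 21.3, 19.2, 22.3, 20.9 and 22.2 CPM in siCtrl 1 to 5 and 30.3, 30.4, 30.3, 27.7 and 28.6 CPM in siDDX41 1 to 5. The lowest knockdown library, siDDX41 4, was above the highest control library. EZH1 rose from 21.2 ± 1.25 to 29.5 ± 1.24 CPM (SD, n = 5; log2 fold change 0.48, SE 0.0481, adjusted p = 5.4e-10). EZH2 (ENSG00000106462.10), the paralog known for its high expression in proliferating cells, gave 35.5, 32.7, 34.7, 35.98 and 34.6 CPM in siCtrl 1 to 5 and 27.5, 28.8, 29.3, 28.3 and 27.7 CPM in siDDX41 1 to 5. Every knockdown library was below every control library. EZH2 fell from 34.7 ± 1.24 to 28.3 ± 0.741 CPM (SD, n = 5; log2 fold change −0.29, SE 0.0410, adjusted p = 2.69e-07).

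Per kilobase of transcript, EZH1 made up 25.6, 25.2, 26.9, 24.99 and 26.9% of the EZH1 and EZH2 sum in siCtrl 1 to 5, and 38.7, 37.7, 37.2, 35.9 and 37.2% in siDDX41 1 to 5. EZH2 therefore remained the more abundant of the pair in every library, although the share of EZH1 was higher in all knockdown libraries, at 37.4% ± 1.01 against 25.9% ± 0.931 (SD, n = 5). The sum of the pair was 17.7 ± 0.660 and 17.0 ± 0.439 CPM per kb, with overlapping groups. Proliferation genes moved in the direction of EZH2 and SUV39H1: 18 of 20 fell and 1 rose, beside 32.1% lower and 30.3% higher among all genes tested. The log2 fold changes of the proliferation genes had a median of −0.35. These genes summed to 6980 to 7140 CPM in siCtrl and 5292 to 5553 CPM in siDDX41, of which the topoisomerase TOP2A gave the largest part of the counts. TOP2A fell from 1177 ± 37.8 to 706 ± 23.8 CPM, the mitotic kinase PLK1 from 172 ± 6.96 to 104 ± 4.52 CPM and the replicative helicase subunit MCM3 from 375 ± 7.91 to 252 ± 7.41 CPM. Of other subunits of that helicase, MCM6 was the 1 gene that rose (log2 fold change 0.11) and MCM5 the 1 not called (0.11). In bulk RNA, fewer cells in a given state and less RNA per cell cannot be told apart, and the part of proliferation in the changes of EZH2, EZH1 or SUV39H1 was not tested.

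The promoter of EZH1 (chr17:42745011-42745290, minus strand) and that of EZH2 (chr7:148884262-148884541, minus strand) had GGGCGG in common, at 1 place in EZH1 and at 4 in EZH2. EZH2 also held CCAAT at 4 places and TTTGGCGC from base 2 of the transcript.
EZH1: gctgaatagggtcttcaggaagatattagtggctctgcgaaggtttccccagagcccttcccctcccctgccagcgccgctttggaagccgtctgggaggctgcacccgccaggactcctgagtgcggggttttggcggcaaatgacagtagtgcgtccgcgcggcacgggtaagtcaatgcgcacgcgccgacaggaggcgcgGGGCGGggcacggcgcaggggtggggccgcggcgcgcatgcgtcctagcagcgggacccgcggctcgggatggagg
EZH2: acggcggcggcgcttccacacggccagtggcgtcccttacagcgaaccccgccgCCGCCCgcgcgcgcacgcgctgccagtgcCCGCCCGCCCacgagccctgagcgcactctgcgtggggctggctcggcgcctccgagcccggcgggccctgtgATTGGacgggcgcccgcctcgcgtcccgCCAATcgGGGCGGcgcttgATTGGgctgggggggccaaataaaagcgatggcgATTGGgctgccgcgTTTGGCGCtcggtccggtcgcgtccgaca

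The H3K36, H3K79 and H4K20 methyltransferases of the symbol rule changed little. Outside the rule, ASH1L, listed with other lysine methylation enzymes, rose from 88.9 ± 10.3 to 127 ± 7.98 CPM (log2 fold change 0.51, adjusted p = 0.000227). NSD3, an H3K36 methyltransferase gene that lies in a region amplified in several cancers, rose from 139 ± 6.22 to 152 ± 2.29 CPM (log2 fold change 0.13), and KMT5B, which di- and trimethylates H4K20, fell from 88.0 ± 2.76 to 78.3 ± 1.20 CPM (log2 fold change −0.17). Neither pair of groups overlapped. ASH1L and NSD3, with transcripts of 12037 and 10768 bases, also had siCtrl 3 and 4 as the highest controls and siDDX41 4 as the lowest knockdown library. NSD1, an H3K36 methyltransferase mutated in Sotos syndrome, was counted at 147, 152, 173, 173 and 148 CPM in siCtrl 1 to 5 and 171, 175, 174, 163 and 171 CPM in siDDX41 1 to 5. It showed the library order of the long transcripts, with siCtrl 3 and 4 as high as the knockdown libraries, and was not called (log2 fold change 0.11, adjusted p = 0.0397), whereas without siCtrl 3 it measured 0.14 with an adjusted p of 0.00289 and without siCtrl 4 it measured 0.14 with an adjusted p of 0.00298. NSD1 also passed without the filter on low counts (0.12, adjusted p = 0.000567) and with the GC trend removed (0.13, adjusted p = 0.00709). SETD2, the enzyme of H3K36 trimethylation, was at 105 ± 9.79 and 112 ± 2.56 CPM and was not called, but passed without siCtrl 3 (0.13, adjusted p = 0.00276). NSD2, which dimethylates H3K36 and at 46.6 CPM per kb in siCtrl was next in abundance after KDM1A, had a log2 fold change of −0.04 (95% interval −0.09 to 0.01). DOT1L, the H3K79 methyltransferase, measured 0.07 (95% interval −0.02 to 0.16), KMT5A, which monomethylates H4K20 in mitosis, 0.05, and KMT5C, which trimethylates H4K20 in heterochromatin, −0.07. None of the 3 was called, except DOT1L with the GC trend removed (0.13, adjusted p = 0.00223).

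Of 7 other SET domain proteins, SETD7 and SETD3 were higher, SETD5 and SETD9 lower and KMT2E, SETD4 and SETD6 not called. SETD7, a lysine methyltransferase with many targets outside histones, had the smallest adjusted p of the members that rose, although its size placed it just outside the 5 largest, and it is singled out after its values were seen. It was counted between 134 and 141 CPM in siCtrl and between 184 and 197 CPM in siDDX41 (log2 fold change 0.47, SE 0.0278, adjusted p = 3.57e-15). SETD3, which methylates a histidine of actin, rose from 55.7 ± 1.32 to 65.2 ± 1.63 CPM (log2 fold change 0.23). SETD5 (ENSG00000168137.15), a chromatin regulator in which variants are linked to intellectual disability, was counted at 181, 178, 199, 199 and 184 CPM in siCtrl 1 to 5 and 144, 155, 152, 145 and 150.3 CPM in siDDX41 1 to 5. No knockdown library reached the lowest control, siCtrl 2. SETD5 fell from 188 ± 10.2 to 149 ± 4.58 CPM (SD, n = 5; log2 fold change −0.33, SE 0.0330, adjusted p = 4.04e-10). SETD9 (ENSG00000155542.11), a SET domain protein with few known substrates, gave 19.5, 18.4, 19.4, 17.5 and 19.7 CPM in siCtrl 1 to 5 and 15.2, 13.7, 14.3, 15.3 and 16.1 CPM in siDDX41 1 to 5. The groups were separate by a narrow margin, between siDDX41 5 and siCtrl 4. SETD9 fell from 18.9 ± 0.933 to 14.9 ± 0.958 CPM (SD, n = 5; log2 fold change −0.34, SE 0.0554, adjusted p = 3.03e-06). KMT2E, a reader of H3K4 methylation, had a log2 fold change of −0.07 and was called only without siCtrl 2 (−0.11, adjusted p = 0.00332) or with the GC trend removed (−0.11, adjusted p = 0.00237). SETD4 lay at the threshold (log2 fold change 0.19, adjusted p = 0.01005) and passed it without siCtrl 5 (0.22, adjusted p = 0.00712) or siDDX41 4 (0.23, adjusted p = 0.00292). It also passed with DESeq2 size factors (0.20, adjusted p = 0.00742), without the filter on low counts (0.19, adjusted p = 0.00833) and with the length trend (0.23, adjusted p = 0.00169) or the GC trend removed (0.22, adjusted p = 0.00214). SETD6, which methylates the NF-kappaB subunit RELA, measured 0.07 with overlapping groups.

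The flavin-dependent H3K4 demethylases KDM1A and KDM1B also moved in opposite directions. KDM1A (ENSG00000004487.15), the LSD1 subunit of CoREST and the most abundant member per kilobase in siCtrl at 79.1 CPM per kb, was counted at 248, 241, 238, 256 and 236 CPM in siCtrl 1 to 5 and 220.0, 227, 221, 222 and 228 CPM in siDDX41 1 to 5. Knockdown libraries were all lower than control libraries, siCtrl 5 being the lowest control. KDM1A fell from 244 ± 7.98 to 223 ± 3.54 CPM (SD, n = 5; log2 fold change −0.13, SE 0.0273, adjusted p = 0.000161). KDM1B (ENSG00000165097.13), which acts in gene bodies and in oocytes, was at 30.8, 30.4, 30.1, 28.1 and 28.4 CPM in siCtrl 1 to 5 and 43.9, 41.0, 41.1, 42.0 and 40.6 CPM in siDDX41 1 to 5. All knockdown libraries were far above the controls. KDM1B rose from 29.5 ± 1.22 to 41.7 ± 1.33 CPM (SD, n = 5; log2 fold change 0.50, SE 0.0406, adjusted p = 5.56e-12). Its share of the summed CPM per kb of the pair was 7.61% ± 0.399 in siCtrl and 11.3% ± 0.450 in siDDX41. The promoters of KDM1A (chr1:23019218-23019497, plus strand) and KDM1B (chr6:18155172-18155451, plus strand) held GGGCGG at 1 and 4 places and no other motif searched.
KDM1A: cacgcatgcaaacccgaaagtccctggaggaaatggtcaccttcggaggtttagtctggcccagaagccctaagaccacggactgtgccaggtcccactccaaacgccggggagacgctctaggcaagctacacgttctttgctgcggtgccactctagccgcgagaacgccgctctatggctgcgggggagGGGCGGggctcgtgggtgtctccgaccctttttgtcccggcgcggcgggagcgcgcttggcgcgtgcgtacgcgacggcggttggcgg
KDM1B: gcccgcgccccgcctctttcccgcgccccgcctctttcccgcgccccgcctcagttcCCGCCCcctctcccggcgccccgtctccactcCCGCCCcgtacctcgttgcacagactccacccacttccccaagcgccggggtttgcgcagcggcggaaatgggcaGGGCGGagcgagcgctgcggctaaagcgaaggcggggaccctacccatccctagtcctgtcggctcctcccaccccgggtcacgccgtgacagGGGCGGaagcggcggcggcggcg

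The JmjC demethylases of H3K4 showed the largest fall among the members, in KDM5C, beside smaller rises in KDM5A and KDM5B. KDM5C (ENSG00000126012.11), an X-linked gene in which loss-of-function variants cause intellectual disability, was counted at 166, 162, 165, 163 and 168 CPM in siCtrl 1 to 5 and 80.3, 85.6, 80.5, 75.9 and 80.1 CPM in siDDX41 1 to 5. Each knockdown library held about as much as the others of its group and far less than any control library. KDM5C fell from 165 ± 2.50 to 80.5 ± 3.45 CPM (SD, n = 5; log2 fold change −1.03, SE 0.0308, adjusted p = 3.26e-22), to 48.9% of the control level. KDM5A (ENSG00000073614.12), first found as a binding partner of the retinoblastoma protein, was counted at 119, 116, 129, 130.1 and 120.0 CPM in siCtrl 1 to 5 and 152, 152, 151, 149.7 and 158 CPM in siDDX41 1 to 5. All knockdown libraries were higher than all control libraries, and siDDX41 5 was the highest. The KDM5A transcript has 10701 bases and showed the library order of the long transcripts, with siCtrl 3 and 4 the highest controls and siDDX41 4 the lowest knockdown library. With the length trend removed KDM5A measured 0.31 and was still called. KDM5A rose from 123 ± 6.30 to 153 ± 3.38 CPM (SD, n = 5; log2 fold change 0.31, SE 0.0321, adjusted p = 7.06e-10). KDM5B (ENSG00000117139.16), often highly expressed in breast cancer, gave 113, 110.1, 125, 118 and 109.9 CPM in siCtrl 1 to 5 and 130.2, 144, 126, 128 and 137 CPM in siDDX41 1 to 5. Here siDDX41 3 and siCtrl 3 almost met without overlapping. KDM5B rose from 115 ± 6.43 to 133 ± 7.19 CPM (SD, n = 5; log2 fold change 0.21, SE 0.0383, adjusted p = 3.18e-05).

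**Figure D2:**
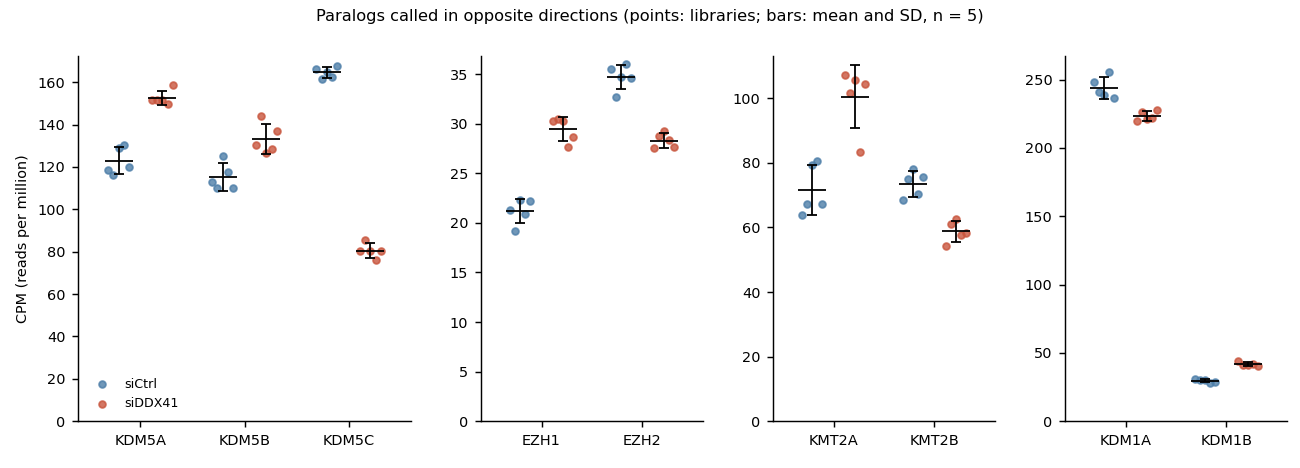
CPM in each library (points) with mean and SD (bars, n = 5 per group) for the 4 sets of paralogs called in opposite directions, siCtrl in blue and siDDX41 in red; each panel has its own axis from 0. KDM5C fell by about as much in every knockdown library, and in no gene do the groups overlap.

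Per kilobase, KDM5C was 55.2, 55.0, 52.6, 53.0 and 55.6% of the KDM5 sum in siCtrl 1 to 5 and 32.9, 33.2, 33.3, 32.0 and 31.8% in siDDX41 1 to 5. It was thus the most abundant of the family in every control library and about level with KDM5A and KDM5B in every knockdown library. The shares of KDM5A and KDM5B were 22.0% ± 0.700 and 23.7% ± 0.820 in siCtrl and 33.6% ± 0.960 and 33.7% ± 0.804 in siDDX41 (SD, n = 5). The rises did not make up for the fall in transcript number: the family summed to 51.9, 50.6, 53.9, 52.8 and 51.9 CPM per kb in siCtrl 1 to 5 and 42.0, 44.4, 41.6, 40.9 and 43.3 CPM per kb in siDDX41 1 to 5. The sum was lower in every knockdown library.

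The promoters of the KDM5 genes differed in composition. KDM5A (chr12:389291-389570, minus strand) held GGGCGG and, in the first bases of the transcript, the reverse complement of CCGGAAG. KDM5B (chr1:202808392-202808671, minus strand) held GGGCGG at 3 places, 2 of them overlapping. KDM5C (chrX:53225178-53225457, minus strand) held none of these and had AAGATGGCG from base 9 of the transcript. G and C made up 52.9% of the printed bases in KDM5C, 61.1% in KDM5A and 63.2% in KDM5B.
KDM5A: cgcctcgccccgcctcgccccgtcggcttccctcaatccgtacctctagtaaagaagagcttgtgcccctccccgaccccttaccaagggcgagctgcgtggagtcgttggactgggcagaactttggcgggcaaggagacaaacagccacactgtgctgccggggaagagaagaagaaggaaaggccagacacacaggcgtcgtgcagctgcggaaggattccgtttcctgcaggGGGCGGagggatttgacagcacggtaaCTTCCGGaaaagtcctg
KDM5B: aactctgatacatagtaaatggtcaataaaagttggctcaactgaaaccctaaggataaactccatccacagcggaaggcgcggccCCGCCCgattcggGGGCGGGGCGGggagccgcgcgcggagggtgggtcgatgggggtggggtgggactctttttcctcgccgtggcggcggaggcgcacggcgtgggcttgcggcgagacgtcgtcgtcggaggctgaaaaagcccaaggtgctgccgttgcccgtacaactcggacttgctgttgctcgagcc
KDM5C: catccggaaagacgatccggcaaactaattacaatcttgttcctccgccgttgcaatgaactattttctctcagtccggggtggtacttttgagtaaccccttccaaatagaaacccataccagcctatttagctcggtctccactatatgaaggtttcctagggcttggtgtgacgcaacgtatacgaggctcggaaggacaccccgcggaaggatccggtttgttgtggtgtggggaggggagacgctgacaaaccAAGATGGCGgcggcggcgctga

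KDM2A, KDM2B and KDM8, grouped here as H3K36 demethylases of the JmjC class, all fell. KDM8, also named JMJD5 and singled out after its values were seen, was at 4.53, 5.55, 4.67, 5.01 and 4.75 CPM in siCtrl 1 to 5 and 1.79, 3.00, 2.26, 2.77 and 2.47 CPM in siDDX41 1 to 5. Every knockdown library was below every control library. KDM8 fell from 4.90 ± 0.402 to 2.46 ± 0.466 CPM (SD, n = 5; log2 fold change −0.99, SE 0.113, adjusted p = 6.28e-09). KDM2B, which brings a variant Polycomb complex to CpG islands, fell from 42.8 ± 1.24 to 34.4 ± 1.28 CPM (log2 fold change −0.32), and its paralog KDM2A from 115 ± 3.63 to 100.2 ± 2.99 CPM (log2 fold change −0.20). For KDM2A the change was −0.12 once the GC trend was removed. The 3 together summed to 25.6 ± 0.534 CPM per kb in siCtrl and 21.0 ± 0.537 in siDDX41 (SD, n = 5), with no overlap.

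Among the H3K9 demethylases of the symbol rule, KDM7A rose, KDM4A fell and 5 others were not called. KDM7A (ENSG00000006459.10), which acts on H3K9 and H3K27 dimethylation, was counted at 8.21, 8.41, 10.2, 9.33 and 7.17 CPM in siCtrl 1 to 5 and 16.1, 16.4, 16.7, 14.5 and 14.9 CPM in siDDX41 1 to 5. The lowest knockdown library was well above the highest control library. KDM7A rose from 8.67 ± 1.16 to 15.7 ± 0.986 CPM (SD, n = 5; log2 fold change 0.86, SE 0.0734, adjusted p = 1.9e-11), the largest rise among members with a mean of at least 5 CPM. KDM4A, which removes trimethylation from H3K9 and H3K36, fell from 143 ± 2.60 to 115 ± 1.54 CPM (log2 fold change −0.32). Its paralogs KDM4B and KDM4C measured −0.13 (95% interval −0.26 to 0.00) and −0.01 (95% interval −0.20 to 0.18), and KDM4D measured 0.31 at 2.85 ± 0.372 and 3.53 ± 0.220 CPM (adjusted p = 0.013). KDM4D passed the threshold without siCtrl 3 (0.35, adjusted p = 0.00829), siCtrl 4 (0.36, adjusted p = 0.00648) or siDDX41 4 (0.35, adjusted p = 0.00839), and with the length trend (0.32, adjusted p = 0.00919) or the GC trend removed (0.34, adjusted p = 0.00586). KDM3A, a hypoxia-induced demethylase of mono- and dimethylated H3K9, and KDM3B had log2 fold changes of 0.06 and −0.09, the latter called only without siDDX41 2 (−0.12, adjusted p = 0.00278) among the fits that left out a library. KDM4E and KDM4F, close copies of KDM4D, had 18 and 4 counts in all.

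Of the H3K27 demethylases, KDM6A, the X-linked UTX that works within the KMT2C and KMT2D complexes, rose from 35.3 ± 1.28 to 40.3 ± 2.08 CPM (log2 fold change 0.19, adjusted p = 0.000191). With the GC trend removed it measured 0.12 and was not called (adjusted p = 0.0114). KDM6B, an inflammation-induced paralog, stood at 30.1 ± 1.94 and 30.4 ± 1.44 CPM with a log2 fold change of 0.01 (95% interval −0.08 to 0.11).

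Of 15 members of the PRDM family, which pair a SET-related domain with zinc fingers, 9 were tested. PRDM1 (ENSG00000057657.15), the repressor BLIMP1 of plasma cell differentiation, was counted at 11.97, 11.8, 12.2, 12.8 and 11.7 CPM in siCtrl 1 to 5 and 9.43, 7.90, 8.63, 7.58 and 9.41 CPM in siDDX41 1 to 5. Control libraries lay close together, and all knockdown libraries were lower. PRDM1 fell from 12.1 ± 0.434 to 8.59 ± 0.846 CPM (SD, n = 5; log2 fold change −0.49, SE 0.0679, adjusted p = 2.17e-07). PRDM4, which binds the arginine methyltransferase PRMT5, rose from 49.6 ± 2.13 to 56.7 ± 3.05 CPM (log2 fold change 0.19), without overlap. PRDM16, a regulator of brown fat identity, was at 0.286, 0.449, 0.0841, 0.770 and 0.417 CPM in siCtrl 1 to 5 and 0.828, 0.869, 0.605, 0.724 and 1.06 CPM in siDDX41 1 to 5. These levels are about 1 CPM or less, siCtrl 4 lay above siDDX41 3 and 4, and the groups overlapped. PRDM16 was called higher (log2 fold change 1.02, 95% interval 0.40 to 1.64, adjusted p = 0.00394) but lost the call without siCtrl 1 (0.92, adjusted p = 0.0138), siCtrl 3 (0.76, adjusted p = 0.0121) or siDDX41 5 (0.91, adjusted p = 0.0155). Over all fits that left out a library it lay between 0.76 and 1.38, highest without siCtrl 4. PRDM2, PRDM8, PRDM10, PRDM11 and PRDM15 were not called, with log2 fold changes from −0.05 for PRDM2 to 0.21 for PRDM8, which passed only with the GC trend removed (0.31, adjusted p = 0.00744). PRDM9, which places meiotic recombination, had 52 counts over all libraries, its near-copy PRDM7 9, PRDM6 43 and PRDM12 27. PRDM13 and PRDM14 were listed at 0 in every library, as EHMT2 was, and no limit on their expression is drawn from it.

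Ratios of paralog counts within a library do not depend on how libraries are scaled, and since they are not divided by length only their difference between groups is read. Between genes of unlike length they can keep a shift of long transcripts between libraries. KMT2A to KMT2B was highest of the controls in siCtrl 3 and 4 (0.02 and 0.20) and lowest of the knockdown libraries in siDDX41 4 (0.54). The part of length in its difference was not tested. Of 20 pairs listed, 19 could be compared, all but EHMT1 and EHMT2, and each was tested with a two-sided exact permutation test of 5 against 5 libraries, whose smallest possible p is 0.00794. The groups did not overlap in 9 pairs, each at that smallest p (adjusted over the 19 pairs, 0.0168). Single genes had no overlap in 55.9% of all genes tested, and ratios of other gene pairs were not tested, so the number of pairs is not a result in itself. KDM5A to KDM5C had log2 ratios of −0.49, −0.47, −0.35, −0.32 and −0.48 in siCtrl 1 to 5 and 0.92, 0.83, 0.91, 0.98 and 0.98 in siDDX41 1 to 5. The ratio was higher in every knockdown library than in any control library, with a mean difference of 1.35. KDM5B to KDM5C differed by 1.24, KMT2A to KMT2B by 0.81, EZH1 to EZH2 by 0.77 and KDM1A to KDM1B by −0.62 on the log2 scale. In these pairs and in KDM5A to KDM5C, each gene alone was already separate between groups, in opposite directions. Their ratios therefore had to separate, and the permutation p of these pairs adds nothing to the calls of the single genes. Smaller differences without overlap were found for SUV39H1 to SUV39H2 (−0.35), SETD1A to SETD1B (−0.26), KDM6A to KDM6B (0.18) and NSD2 to NSD3 (−0.17). In 5 further pairs with overlapping groups the adjusted p was under 0.05 with all libraries, but the count of pairs under 0.05 went from 14 to between 9 and 11 whichever of the 10 libraries was left out. KMT2C to KMT2D, called in the same direction, differed by −0.10 (exact permutation p = 0.135).

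Summed over all members of a role in CPM per kb, transcripts of the H3K9 methyltransferases went from 52.6 ± 1.09 to 46.3 ± 0.789, EHMT2 being listed at 0, and those of the H3K9 JmjC demethylases from 68.7 ± 1.93 to 62.4 ± 1.84 (SD, n = 5). Neither overlapped between groups. The first difference lies mostly in SUV39H1, which went from 20.2 to 14.6 CPM per kb, while SUV39H2 went from 21.4 to 19.8 and EHMT1 from 11.1 to 11.9. The second difference lies in 1 gene, KDM4A, which went from 31.9 to 25.5 CPM per kb. H4K20 methyltransferases were also separate, at 34.4 ± 0.298 and 32.9 ± 0.423. Of these only KMT5B was called, and it went from 15.4 to 13.7 CPM per kb. By contrast, the H3K4 methyltransferases summed to 32.4 ± 1.25 and 33.2 ± 1.55 with overlap, since KMT2A, KMT2C and KMT2D rose while KMT2B and SETD1A fell. The groups overlapped for the H3K36 methyltransferases as well (log2 ratio of the means 0.03). These sums are of transcripts and carry no p-value.

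Partner subunits were counted from lists outside the symbol rule, and their counts stand beside 30.3% of all genes called higher and 32.1% called lower. The lists were not tested as sets, and shares near these are not results. Of 14 COMPASS and MLL complex subunits tested, 2 rose and 6 fell (median log2 fold change −0.07). MEN1, the menin subunit of KMT2A and KMT2B complexes, fell from 70.6 ± 1.99 to 44.5 ± 1.38 CPM (log2 fold change −0.66, SE 0.0346), the core subunit ASH2L from 90.8 ± 2.52 to 72.7 ± 2.02 CPM (log2 fold change −0.32, SE 0.0316) and NCOA6, a subunit of KMT2C and KMT2D complexes, from 84.4 ± 4.62 to 64.6 ± 3.20 CPM (log2 fold change −0.39, SE 0.0389). Of 9 subunits of Polycomb repressive complex 2, 3 rose and 5 fell (median −0.13), while EPOP was listed at 0. PHF19, which binds H3K36 methylation, fell from 132 ± 4.50 to 76.5 ± 1.78 CPM (log2 fold change −0.79, SE 0.0309), the histone chaperone RBBP4 from 296 ± 6.01 to 212 ± 3.79 CPM (log2 fold change −0.48, SE 0.0260) and JARID2 from 61.0 ± 0.974 to 38.8 ± 1.77 CPM (log2 fold change −0.65, SE 0.0365). The groups did not overlap for any of these. SUZ12 and EED fell less (−0.18 and −0.13), and LCOR, MTF2 and AEBP2 rose (0.48, 0.34 and 0.14), so the subunits did not move as a whole with EZH2.

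Partners of H3K9 methylation gave 3 rises and 6 falls of 12 (median −0.10). CBX1, an HP1 protein that binds methylated H3K9, fell from 311 ± 6.35 to 221 ± 5.88 CPM (log2 fold change −0.49, SE 0.0267), ATF7IP, which stabilises SETDB1, from 79.1 ± 4.69 to 52.1 ± 1.48 CPM (log2 fold change −0.60, SE 0.0383) and WIZ, a partner of EHMT1 and EHMT2, from 34.5 ± 2.56 to 20.6 ± 1.35 CPM (log2 fold change −0.74, SE 0.0528). The LSD1-CoREST list gave 2 rises and 5 falls of 10 (median −0.11). ZMYM3 fell from 149 ± 4.63 to 75.6 ± 2.53 CPM (log2 fold change −0.98, SE 0.0314) and RCOR2, a CoREST paralog, from 5.93 ± 0.428 to 1.803 ± 0.404 CPM (log2 fold change −1.72, SE 0.117). Among 7 partners of DOT1L and super elongation complex subunits, 2 rose and 4 fell (median −0.19). MLLT1, the acetyl-lysine reader ENL, fell from 56.8 ± 2.60 to 31.5 ± 1.43 CPM (log2 fold change −0.85, SE 0.0409) and ELL2 from 50.3 ± 1.72 to 41.3 ± 2.97 CPM (log2 fold change −0.28, SE 0.0431), whereas the elongation factor ELL rose from 11.4 ± 1.33 to 16.4 ± 1.29 CPM (log2 fold change 0.53, SE 0.0715).

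Other lysine methylation enzymes outside the symbol rule split evenly, 5 up and 5 down of 16 (median −0.03). The lists share genes: JARID2, a JmjC protein without known demethylase activity, is 1 of these 5 falls and is counted among the PRC2 subunits too, and SETDB1, HDAC1 and HDAC2 also stand in more than 1 list. HR, a JmjC demethylase needed for hair growth, fell from 86.4 ± 5.73 to 25.4 ± 3.76 CPM (log2 fold change −1.77, SE 0.0856) and MECOM, an oncogenic relative of PRDM16, from 33.5 ± 1.30 to 19.7 ± 1.17 CPM (log2 fold change −0.76, SE 0.0472). Histone acetyltransferases and deacetylases gave 10 rises and 8 falls of 23 (median 0.07), with KAT6B and SIRT2 listed at 0. HDAC3, the deacetylase of the NCoR complex, fell from 80.2 ± 2.50 to 47.8 ± 1.90 CPM (log2 fold change −0.75, SE 0.0351) and the sirtuin SIRT1 from 58.3 ± 2.96 to 40.1 ± 0.910 CPM (log2 fold change −0.54, SE 0.0384), while HDAC9 rose from 29.9 ± 0.666 to 51.2 ± 3.45 CPM (log2 fold change 0.78, SE 0.0435). Protein arginine methyltransferases gave 5 rises and 2 falls of 8 (median 0.13). PRMT5, the main enzyme of symmetric arginine dimethylation, fell from 128 ± 2.56 to 104 ± 3.12 CPM (log2 fold change −0.31, SE 0.0293), PRMT7 from 30.8 ± 2.13 to 26.2 ± 1.33 CPM (log2 fold change −0.23, SE 0.0494), and PRMT6 rose from 53.6 ± 2.25 to 62.8 ± 0.883 CPM (log2 fold change 0.23, SE 0.0346).

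Promoter sequences were found for 53 of the 61 members and compared with 34943 distinct promoters of the same length, 250 bases before to 50 after the start. GGGCGG was present in 40 of the 53 and in 44.9% of all promoters, CCAAT in 20 and 34.6%, CCGGAAG in 8 and 10.2%, and CACGTG in 8 and 7.23%. TATAAA was found in 1 member, PRDM11, and in 11.6% of all promoters. TTTGGCGC was found in EZH2 alone (0.650% of all), and TGACGTCA in SUV39H2 alone (1.84%). AAGATGGCG was found in 4 members, KDM5C, KMT2B, SUV39H2 and PRDM2, and in 1.75% of all promoters. These are descriptions of the sequence and were not tested, and no match says only that the letters are absent from this window.

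Counts of members that share exon bases with a gene on the other strand are uncertain, because the strand setting of the counting is not given in the sources used here. This touches SETD6 (17.5% of its exon bases lie opposite CNOT1), SUV39H1 (21.2%, a weakly counted lncRNA) and KDM8 (14.5%, a lncRNA) most, and near-copies such as PRDM7 and PRDM9 or KDM4D, KDM4E and KDM4F may trade reads.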

How the data were processed

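The authors deposited 1 table of raw read counts per gene for each of 10 libraries (63299 genes), made with bcl2fastq 2.19, STAR 2.7, featureCounts 1.6, genome build hg38 and an earlier GENCODE release. Neither the strand setting nor the treatment of multi-mapping reads is given in the sources. Gene symbols were taken from GENCODE release 44. Members and lists were chosen with earlier results of these data known. Members were named singly, and a few genes are not reported here. Full statistics were given for the 5 called members with the largest changes in each direction, at a mean of at least 5 CPM without overlap of the groups, and for paralogs called in opposite directions. From each related list up to 3 genes with the smallest adjusted p were named, and some others were named for comparison. Counts were filtered with filterByExpr, scaled by TMM and tested in edgeR 4.0.16 (R 4.3.3) as siDDX41 against siCtrl, 5 libraries each, at an adjusted p under 0.01. The code was tested on simulated data. Library totals ran from 21807041 to 24896398 counts, and the biological coefficient of variation was 3.65%. Alternatives were DESeq2 1.42.0 size factors and Wald test, limma 3.58.1 voom, library totals, other filters and thresholds, trends on length or GC removed, a replicate block and each library left out. Figures were drawn with matplotlib 3.10.9.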

Additional observations from a re-analysis of the deposited data

Results flagged for a closer look

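Chance sets a library apart in about 1 in 20 groups by the test used here, the gap to the nearest library over the range of its group, and 7 of 152 groups of 5 libraries held such a library. KMT2A was at 83.5 CPM in siDDX41 4, where the other 4 knockdown libraries lay between 102 and 107. SUV39H1 was at 37.0 CPM in siDDX41 1 (others 40.4 to 41.5), KDM4C at 3.83 CPM in siDDX41 5 (others 4.86 to 5.24) and KDM5A at 158 CPM in siDDX41 5 (others 149.7 to 152). The log2 ratio of KDM2A to KDM2B was 1.52 in siCtrl 4 (others 1.39 to 1.41), and that of KDM5A to KDM5B was 0.0767 in siDDX41 2 (others 0.21 to 0.26). The mitochondrial share was 2.29% in siDDX41 1, with the other knockdown libraries between 2.00% and 2.07%.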

How the results depend on the processing

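Of the 31 called members, 26 kept their call and direction in every refit at the same threshold (19 refits for each), and the other 5 (EHMT1, SUV39H2, PRDM16, KDM6A and KMT2A) kept their direction. PRDM16 had no value under the stricter filter, 1 CPM in 5 libraries. With an absolute log2 fold change of at least 0.5 also required, 3 members were called higher and 2 lower, in place of 16 and 15, and 1584 of all genes higher and 2534 lower, in place of 4890 and 5178. An adjusted p under 0.05 gave 19 members higher and 16 lower, and 5626 of all genes higher and 5794 lower. The count of paralog pairs with an adjusted p under 0.05 was 14 with all libraries and 9 to 11 when 1 was left out. The cause of this drop was not tested.

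Values near 0 changed sign when 1 library was left out, within a range of −0.0482 to 0.0601 for KDM4C, −0.0137 to 0.0424 for KDM6B and −0.0417 to 0.0101 for PRDM10. The NSD1 to NSD3 log2 ratio difference ranged from −0.0392 to 0.0039, and PRDM10 was 0.0275 with the length trend removed. The cause was not tested. A replicate block gave 15 members higher and 15 lower, and 4790 and 5097 of all genes. KMT2A (0.49, adjusted p = 0.0133) and EHMT1 (0.10, adjusted p = 0.0115) were not called with the block, and SETD4 was (0.19, adjusted p = 0.00731). Deviations of libraries with the same replicate number correlated at −0.000762, −0.0524, −0.00187, 0.0446 and 0.0259. Libraries with unlike numbers gave −0.0574 to 0.0796. No effect shared by a replicate number was seen, which does not settle whether the numbers pair the samples. With the GC trend removed, 7 members not called before passed the threshold: SETD1B, NSD1, DOT1L, KMT2E, SETD4, KDM4D and PRDM8. That setting gave 21 members higher and 16 lower, and 5137 of all genes higher and 5111 lower, in place of 4890 and 5178. PRDM16 was called at a mean of 0.610 CPM over 10 libraries, while 9 members did not pass the filter on low counts. Whether low counts hid other changes was not tested.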
